A study of Mus musculus with 12 samples.

Results

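Nos2, the gene for inducible nitric oxide synthase, was followed in the terminal ileum of 12 male C57BL/6 mice at week 7. It was 1 of 556 genes with a value on a mouse immunology probe panel. The genes of interest were chosen by name, as enzymes whose expression responds to microbes, and were 2 in number, Nos2 (RefSeq gene ID 18126) and Ido1. Ido1, the gene for indoleamine 2,3-dioxygenase, was not analysed here. The mice formed 4 groups of 3. Specific pathogen-free (SPF) mice, labelled as colonized, and germ-free (GF) mice, which are raised without microbes, either received the macrolide antibiotic tylosin or did not. The tylosin course, called pulsed antibiotic treatment (PAT), was given once in the drinking water, from postnatal day 5 for 5 days. The paper describes this early course as reaching the pups through their nursing dams. Dams were assigned to tylosin or control together with their litters, at random. Several weeks passed between the end of the course and sampling. Controls of both kinds received water alone. The untreated groups are called SPF control and GF control, the treated ones SPF PAT and GF PAT. All 4 groups shared strain, sex, age and tissue. SPF litters were bred from purchased parents and GF mice came from the authors' own germ-free colony, so colonization and colony of origin cannot be told apart. The labels do not name the litter or the assay cartridge of a mouse. Where mice of a group shared a litter, p-values measure only the spread between these 12 mice.

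Inducible nitric oxide synthase makes nitric oxide from arginine. Macrophages and the intestinal epithelium are known sources. In macrophages the gene is transcribed when microbial products act through Toll-like receptors and NF-kB, and more strongly when interferon-gamma acts at the same time. Nitric oxide is toxic to many microbes, and nitrate formed from it in the gut lumen can be used by some bacteria for respiration. Ido1 breaks down tryptophan to kynurenine, is also induced by interferon-gamma, and is known for its part in immune tolerance.

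Values were log2 of counts divided by 1 size factor per mouse, and the whole counts behind them could be recovered. Total counts per mouse were 806043 to 923395 in SPF controls and 600308 to 681370 in the other 9 mice, without overlap. Of the epithelial markers listed, 3 of 6 were measured, and Itln1, a lectin of the small intestine, had 52457 to 96536 counts in every mouse. Pigr, the epithelial receptor that carries IgA into the lumen, had 25041 to 80927 counts.

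Nos2 was highest in SPF controls, at 9.58, 9.80 and 10.56 on the log2 scale in mice 2, 7 and 8, from 915, 1118 and 1813 counts. In SPF PAT mice it was 7.56, 8.69 and 8.46 in mice 21, 26 and 27, from 201, 349 and 293 counts. Every SPF control mouse was above every SPF PAT mouse, and mouse 21 stood lowest of the SPF mice. GF controls had 7.16, 7.37 and 6.85 in mice 37, 38 and 39, from 141, 137 and 116 counts. GF PAT mice had 6.67, 7.12 and 6.92 in mice 41, 42 and 43, from 109, 140 and 113 counts. All 6 GF mice lay below all 6 SPF mice, and the 2 GF groups overlapped. The counting error of a single mouse's Nos2 value, the square root of its count as a share of the count, was between 2.35% and 9.58%. The negative control probes held no value, so the background of the assay under these counts is unknown. The group means were 9.98 ± 0.511 (SD, n = 3) in SPF controls, 8.24 ± 0.594 in SPF PAT, 7.13 ± 0.258 in GF controls and 6.90 ± 0.228 in GF PAT mice.

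**Figure D1:**
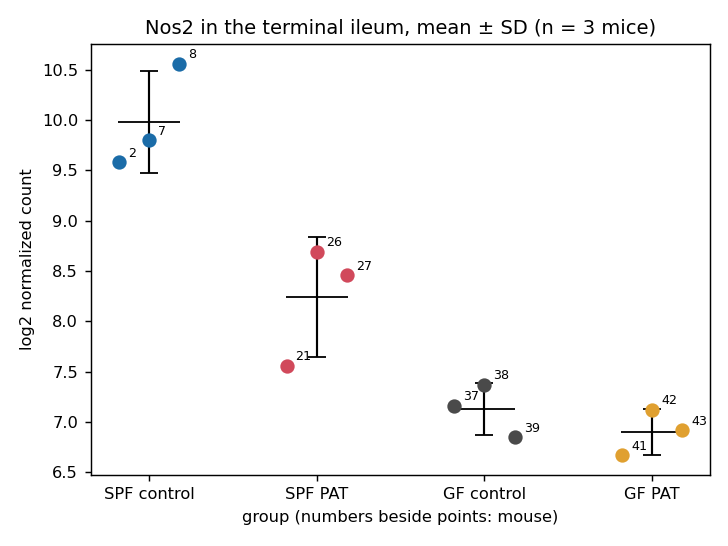
Nos2 in each of the 12 mice, as log2 of the normalized count, by group; each point is 1 mouse. SPF controls lie between 9.58 and 10.56, SPF PAT mice between 7.56 and 8.69, and the 6 GF mice between 6.67 and 7.37.

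The plot of Nos2 by mouse shows a step between the SPF groups and a smaller one between SPF PAT and GF mice. As a share of all counted molecules the order of the groups was the same. SPF controls had 11.4, 13.3 and 19.6 Nos2 counts in 10000, SPF PAT mice 2.99, 5.81 and 4.82, GF controls 2.13, 2.19 and 1.70, and GF PAT mice 1.62, 2.22 and 1.78. This share does not use the size factors, and again no SPF mouse fell among the GF mice. Nos2 was the 77th to 134th most abundant of the 556 transcripts in SPF controls, the 179th to 267th in SPF PAT mice and the 251st to 333rd in GF mice, a ranking that also reflects differences between probes. Its spread between mice was large for this panel in the SPF groups and nearer the middle in the GF groups. Among genes with a mean normalized count of at least 20, the SD of Nos2 was at percentile 85.4 in SPF controls and 82.2 in SPF PAT mice, against 58.4 in GF controls and 63.1 in GF PAT mice.

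The first comparison asked how far Nos2 depended on colonization in mice without tylosin. Nos2 was higher in SPF than in GF controls by 2.85 on the log2 scale (SE 0.33, 95% confidence interval 2.12 to 3.59), which is 7.23-fold (4.35 to 12). The adjusted p was 0.000277 by limma, a linear model with variances moderated across genes, after Benjamini-Hochberg adjustment over 556 genes. The lowest SPF control was 2.22 above the highest GF control. In this comparison 42.1% of all genes passed the same threshold, an adjusted p under 0.05, so passing it did not set Nos2 apart. Its size did rank high, since only 3 genes of 556 had a larger difference, and the median over all genes was 0.08. With 3 mice against 3, an exact permutation test of Nos2 alone gave p = 0.1, the smallest value this design allows. In whole tissue, fewer cells that make Nos2 and less Nos2 RNA per cell cannot be told apart.

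The second comparison asked whether early-life tylosin changed Nos2 in colonized mice. Nos2 fell by 1.75 on the log2 scale in SPF PAT against SPF control mice (SE 0.33), a level 3.36-fold lower (95% confidence interval 2.02 to 5.58), with an adjusted p of 0.00545 by limma. The highest SPF PAT mouse was 0.90 below the lowest SPF control. Across the panel 26.3% of genes passed, the median difference was -0.02, and Nos2 was the 25th from the lowest. The exact permutation p was again 0.1. SPF PAT mice thus lay between the control groups. On the log2 scale, the SPF PAT mean kept 38.8% of the distance by which the SPF control mean exceeded the GF control mean. Mouse 21 stood at 15.2%, mouse 27 at 46.6% and mouse 26 at 54.6%. These shares rest on the same SPF control mice as both comparisons above.

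The same course had no detectable effect on Nos2 in the absence of microbes. GF PAT minus GF control was -0.22 (SE 0.33, 95% confidence interval -0.96 to 0.51, adjusted p = 0.767 by limma). That interval runs from a level 1.94-fold lower to one 1.42-fold higher. An exact permutation test gave p = 0.400. No gene of the panel passed in this comparison (0.00% of 556) by limma, and 28 had an unadjusted p under 0.05. Among the alternatives, 1 gene passed by voom on the recovered counts and 1 by limma without mouse 37.

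Whether the tylosin effect itself differed with colonization was tested as the difference of the SPF and GF effects. For Nos2 it was -1.52 (SE 0.46, 95% confidence interval -2.56 to -0.48), with an unadjusted p of 0.00867 and an adjusted p of 0.0502 by limma, just above the threshold of 0.05. In this test 17.1% of genes passed, and Nos2 was the 96th by p where 95 were called. That count was 35 without mouse 27 and 217 without mouse 21. The call of Nos2 turned on the setting. It passed without SPF PAT mouse 21 (-1.19, adjusted p = 0.0423), and over the other ways of processing the adjusted p ranged from 0.0169 to 0.346.

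**Figure D2:**
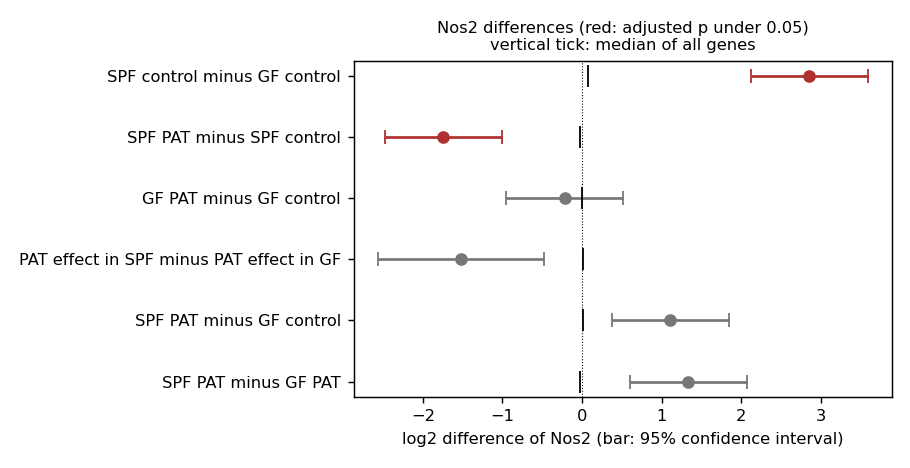
Difference of Nos2 in 6 comparisons on the log2 scale; points are differences of group means, bars are 95% confidence intervals, vertical ticks the median over all 556 genes, and red marks an adjusted p under 0.05. The SPF control against GF control difference of 2.85 and the SPF PAT against SPF control difference of -1.75 pass the threshold, and the GF PAT interval of -0.96 to 0.51 includes 0.

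The plot of differences shows that the intervals of SPF PAT against either GF group also lie above 0, although neither difference passed after adjustment. SPF PAT minus GF control was 1.11 (95% confidence interval 0.37 to 1.84, 2.16-fold, adjusted p = 0.195 by limma). The lowest SPF PAT mouse, 21, was 0.20 above the highest GF control, 38. With 2.16% of genes called (12, and 1 without mouse 26 or 38), Nos2 had the 9th highest difference of 556. SPF PAT minus GF PAT was 1.33 (0.60 to 2.07, 2.52-fold, adjusted p = 0.102), with a gap of 0.44 between the groups, where 1.44% of genes were called (8, and 1 without mouse 26, 41 or 42) and Nos2 had the 6th highest difference. Without mouse 21 this difference was 1.67 and passed (adjusted p = 0.0230 by limma). Exact permutation tests gave p = 0.1 for both.

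Over the 4 groups together Nos2 had an F of 36.7 (adjusted p = 0.000566 by limma), the 13th smallest p on a panel where 33.1% of genes passed. Ordered by level, SPF control came first and differed from SPF PAT, its neighbour, by the test above. SPF PAT and GF control did not overlap but did not pass, and GF control and GF PAT overlapped.

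Markers of cells known to make Nos2 were set beside it, as summed normalized counts per mouse. For macrophages and dendritic cells, 7 of 10 listed markers were measured and none was at 0 in any mouse. Their sum was 2768 to 3097 in SPF controls, 1918 to 2775 in SPF PAT, 1719 to 2226 in GF control and 2115 to 2558 in GF PAT mice. Its median was 1.39 times as high in SPF as in GF controls. In each comparison 1 of the 7 genes passed, Itgam (1.26 on the log2 scale in SPF against GF controls and -0.90 in SPF PAT against SPF controls), where 42.1% and 26.3% of all genes did. For neutrophils, with 4 of 5 markers measured and none at 0, the sum was 73.6 to 128 in SPF controls, 31.2 to 51.9 in SPF PAT, 23.4 to 45.8 in GF control and 34.5 to 65.4 in GF PAT mice. Its median was 2.72 times as high in SPF as in GF controls. Of these 4, 3 were higher in SPF than in GF controls and 2 were lower in SPF PAT than in SPF controls, where 42.1% and 26.3% of all genes passed in either direction. Neutrophil marker counts were low, so sizes cannot be read closely. In that order of groups S100a8 had 21 to 44, 4 to 8, 4 to 10 and 9 to 23 counts. S100a9 had 29 to 65, 8 to 12, 4 to 8 and 6 to 12. The sum of 3 epithelial markers (Pigr, Itln1 and Cd9) was 112877 to 134379, 98543 to 171302, 92654 to 108457 and 80508 to 91431 in the same order of groups, and was made up almost wholly of the first 2. Pigr was higher in SPF than in GF controls (0.77), Cd9 was lower (-0.92), and Cd9 was higher in SPF PAT than in SPF controls (0.64), while Itln1 did not pass in either comparison. The part of these cells in the Nos2 differences was not tested.

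T cells are not a main source of Nos2 but are a source of interferon-gamma. The sum of their 7 markers, all measured and none at 0, was 993 to 1590 in SPF controls, 347 to 984 in SPF PAT, 290 to 717 in GF control and 461 to 886 in GF PAT mice, and its median was 4.64 times as high in SPF as in GF controls. Of the 7 genes, 4 were higher in SPF than in GF controls and 4 were lower in SPF PAT than in SPF controls, beside the same 42.1% and 26.3% of all genes. B and plasma cell markers (7 of 7 measured, none at 0) summed to 8777 to 10792, 7031 to 10475, 6221 to 8968 and 6903 to 9194 in that order. Natural killer and innate lymphoid markers (3 of 5 measured, none at 0) summed to 736 to 851, 1083 to 1277, 934 to 1094 and 1182 to 1762. Within the SPF groups the mice at the extremes of Nos2 also stood at the extremes of several marker sums. Mouse 21 had the lowest Nos2 of the SPF PAT mice. Its T cell sum was the highest, 984 against 404 and 347 in mice 26 and 27. It also had the highest B and plasma cell sum (10475) and the lowest epithelial sum (98543). Its macrophage and dendritic cell sum was the highest as well (2775), but rested on the marker Cd83. Cd83 had 1509 counts in mouse 21 and as few as 332 in its group. Without Cd83 the sum of mouse 21 was the lowest of its group. Mouse 8 had the highest Nos2 of the SPF controls and the lowest B and plasma cell sum (8777). Its T cell sum was also the lowest, 993 against 1374 and 1590 in mice 2 and 7. Its macrophage and dendritic cell sum was the lowest too (2768), again through Cd83. Cd83 had 569 counts in mouse 8 and up to 1718 in its group. Without Cd83 the sum of mouse 8 was the highest of its group. The part of any of these cells in the Nos2 differences was not tested either.

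The interferon-gamma arm upstream of Nos2 was described by a list of 14 genes, of which 12 were measured. In SPF against GF controls 6 were higher and 4 lower, with a median of 0.59 against 0.08 over all genes, of which 42.1% passed. In SPF PAT against SPF controls 5 were lower and 3 higher, with a median of -0.67 against -0.02 over all genes, of which 26.3% passed. The genes that were higher in SPF controls were transcription factors and induced products. For Cxcl9, a chemokine induced by interferon-gamma, the differences were 1.72 in the first comparison and -1.56 in the second, both past the threshold. Irf1, Irf8, Socs1 and Cxcl10 also passed in both, in the same directions as Nos2. Ciita, the activator of MHC class II genes, passed in the first comparison (1.82) and not in the second (-1.73, adjusted p = 0.0584 by limma). The receptor genes and the kinase genes Jak1 and Jak2 ran the other way. Of these, only Jak1 did not pass in the second comparison (0.27, adjusted p = 0.0958 by limma). Ifngr1 and Ifngr2, the receptor chains, differed by -1.01 and -0.85 in the first comparison and 0.75 and 0.69 in the second. Ifng itself was near the limit of counting, with 3 to 14 counts in every mouse, and did not pass in any comparison. Both comparisons share the SPF control mice. Centring each mouse on its median gene lowered the median of all genes from 0.08 to -0.36 in the first comparison and raised it from -0.02 to 0.34 in the second. The list then had 3 higher and 4 lower, and 3 higher and 2 lower, and Nos2 still passed (2.41 and -1.39).

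The microbial sensing arm (Toll-like receptors, NF-kB and cytokines, 18 of 19 measured) had no common direction. In SPF against GF controls 3 genes were higher and 7 lower (median -0.12), against 42.1% called and a median of 0.08 over all genes. In SPF PAT against SPF controls 5 were higher and 2 lower (median 0.13), against 26.3% and -0.02. Nfkbiz, which encodes a nuclear partner of NF-kB that is itself induced by microbial signals, ran with Nos2, at 1.03 and -0.83. So did Tlr2, a receptor for bacterial lipoproteins, at 0.78 and -0.83. Il1b passed in the first comparison alone (0.86). Relb, a subunit of NF-kB, ran against Nos2, at -0.74 and 0.81, as did Tlr5, the flagellin receptor, at -0.92 and 0.71, both past the threshold. The second count rested on single mice. When mouse 2 of the SPF controls was left out it was 1 higher and 1 lower, and it was 2 and 2 without mouse 7, 2 and 1 without mouse 27, and 3 and 2 without mouse 26. The first was 1 and 7 without mouse 2 or mouse 37. Centring on the median gene gave 0 and 9, then 5 and 0.

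Of the interleukin 17 and interleukin 22 genes, cytokines of the gut barrier that can act on the epithelium, 10 of 12 were measured. Of these, 2 were higher and 2 lower in SPF than in GF controls (median 0.25), and 1 was higher and 2 lower in SPF PAT than in SPF controls (median 0.08), counts near the shares of all genes called, 42.1% and 26.3%. Il17a had 22 to 26 counts in SPF controls, 7 in each SPF PAT mouse and 4 to 16 in GF mice. Il22 had 9 to 13 counts in SPF controls, 2 to 3 in SPF PAT mice and 0 to 3 in GF mice. Both passed in the 2 comparisons, like Nos2, from counts too low for a size to be read closely. By the methods' Tukey test neither count of the second comparison held (0 and 0), and without any 1 of mice 2, 7, 26 and 27 it was 0 higher and 1 lower. The first count was 2 and 0 without mouse 38 and 2 and 1 without mouse 7, 8 or 39, and its median turned to -0.19 with median centring and -0.20 with quantile normalization.

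The other enzymes and sensors of nitric oxide, arginine and tryptophan were thinly covered, with 4 of 15 measured beside Nos2 (Ahr, Cybb, Ptgs2 and Hif1a). Cybb, a subunit of the phagocyte oxidase, was higher in SPF than in GF controls (0.83, adjusted p = 0.0322 by limma) and Ahr, a receptor for tryptophan metabolites, was lower (-0.48, adjusted p = 0.0174). Their median was -0.30, and none of the 4 was called in SPF PAT against SPF controls (median 0.19), where Nos2 was. Neither call held by the methods' Tukey test, with Benjamini-Yekutieli adjustment, or without mouse 7, 38 or 39 (0 higher and 0 lower), Cybb's was lost without mouse 2, 2 genes were lower without mouse 37, and without mouse 21 the second count was 1 higher and 1 lower. In the tolerance list linked by function with Ido1, 10 of 10 genes were measured, 3 were higher in SPF than in GF controls (Ctla4, Icos and Cd80, median 0.45) and Ctla4 alone was lower in SPF PAT than in SPF controls (-1.24, list median -0.40), fewer than the 42.1% and 26.3% of all genes. The last count was 4 without mouse 21, 2 without mouse 8 or 38, and 0 without any 1 of mice 2, 7, 26, 27, 41 and 42. The first was 1 without mouse 2, 7 or 38, and the 2 counts were 1 and 0 by the Tukey test and with Benjamini-Yekutieli adjustment. No gene of these 5 lists was called in GF PAT against GF controls.

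**Figure D3:**
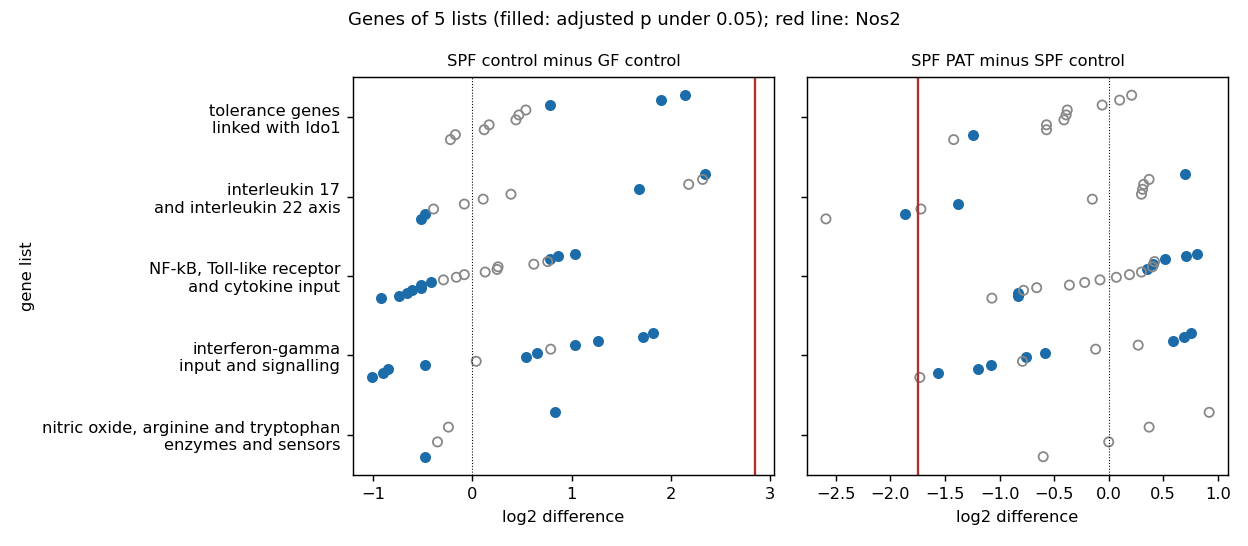
Genes of 5 lists in SPF control minus GF control (left) and SPF PAT minus SPF control (right), as log2 differences; each point is 1 gene, filled points have an adjusted p under 0.05, and the red line marks Nos2 (2.85 and -1.75). In the left panel every listed gene lies below Nos2, and in the right panel points fall on both sides of 0.

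The plot of the lists shows Nos2 beyond every listed gene in SPF against GF controls, the largest listed difference being 2.34 (Il22). In SPF PAT against SPF controls Il22 (-1.87) and Ccr6 (-2.59, not called) lay beyond it.

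Among 444 other genes with a mean normalized count of at least 20, those whose log2 levels followed Nos2 most closely over the 12 mice were Nfkbiz (Pearson r = 0.97, Spearman rho = 0.90), Saa1_2 (0.96 and 0.92), Tnfrsf17 (0.95 and 0.90), C2 (0.95 and 0.87) and Tnfsf13b (0.93 and 0.91). These are descriptions. The 12 mice share 4 groups, which differ in Nos2, and 36 genes reached an r of 0.8. With the group means removed, r was 0.87 for Nfkbiz, 0.90 for C2, 0.72 for Tnfrsf17, 0.57 for Saa1_2 and 0.49 for Tnfsf13b.

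**Figure D4:**
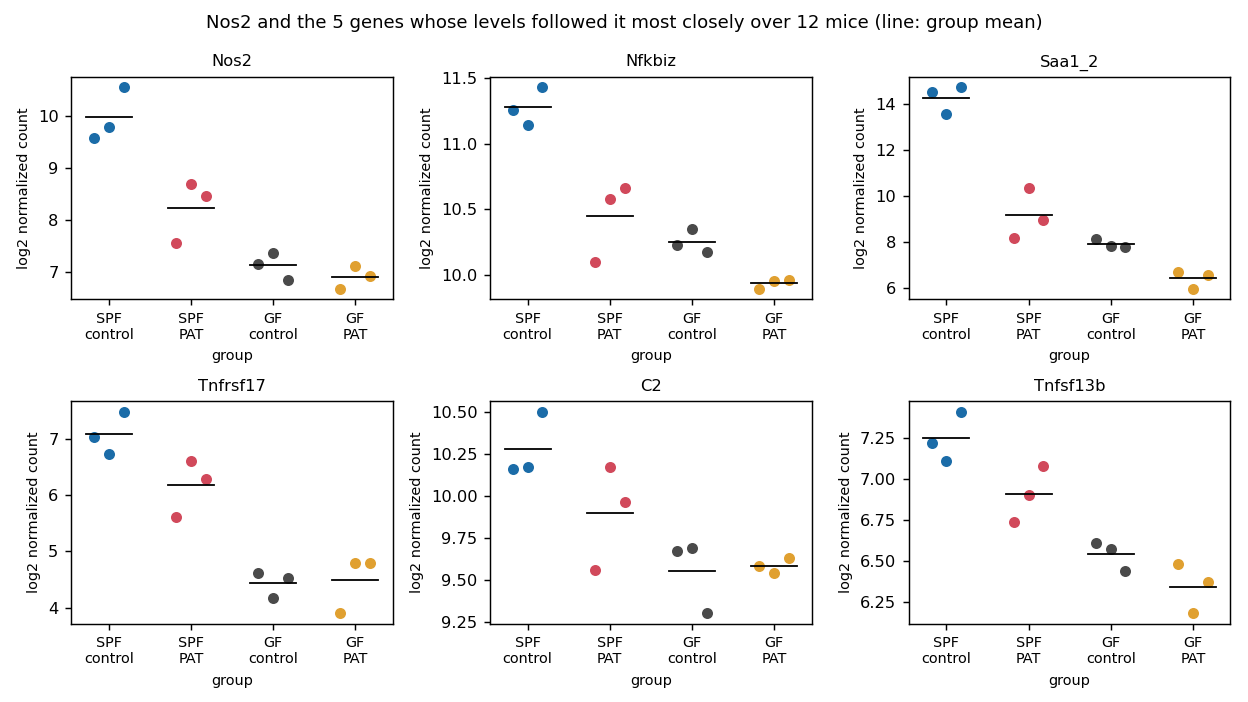
Nos2 and the 5 genes whose levels followed it most closely over 12 mice, as log2 normalized counts by group; points are mice and lines group means, and the scale differs between panels. In all 6 genes SPF control mouse 8 is the highest of its group and SPF PAT mouse 21 the lowest of its group.

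The plot of these genes shows that the same mice stood apart in each, which the choice of genes by likeness to Nos2 favours. Mouse 8 was the highest SPF control in Nos2 (10.56) and in Nfkbiz (11.43), Saa1_2 (14.75), Tnfrsf17 (7.48), C2 (10.50) and Tnfsf13b (7.41). Mouse 21 was the lowest SPF PAT mouse in Nos2 (7.56) and in Nfkbiz (10.10), Saa1_2 (8.16), Tnfrsf17 (5.61), C2 (9.56) and Tnfsf13b (6.74). Saa1_2, the probe for the acute-phase proteins serum amyloid A, spanned a much wider range than Nos2, with means of 14.29 in SPF controls, 9.16 in SPF PAT mice, 7.91 in GF controls and 6.41 in GF PAT mice. Tnfrsf17, a receptor of plasma cells, had 52 to 83 counts in SPF PAT mice and 15 to 24 in GF controls, and unlike Nos2 it passed between these groups (1.74, adjusted p = 0.0236 by limma). In SPF PAT against SPF controls it did not pass (-0.91, adjusted p = 0.0631). C2, a complement component, and Tnfsf13b, a survival factor for B cells, passed in SPF against GF controls (0.72 and 0.71) and likewise not in SPF PAT against SPF controls (-0.38 and -0.34), where Nos2, Nfkbiz and Saa1_2 did.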

How the data were processed

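Ileal RNA of 12 mice was measured with the nCounter GX mouse immunology panel (NanoString), in which colour-coded probes are counted without amplification. The labels name TRIzol and RNeasy for extraction and the methods a miRNA kit. The authors normalized the counts with DESeq2, and the deposited values are log2 of these counts, 1 column per mouse. Of 584 rows, 28 held no value (14 reference genes, 8 negative and 6 positive controls), leaving 556 genes, of which 537 had a current RefSeq symbol (GRCm38.p6). The panel files name no genome build, so no coordinates are given. Whole counts were recovered from the deposited values with 1 size factor per mouse (0.830 to 1.250), with 0 values beyond a tolerance of 0.01, and a count of 0 stood as log2 0. The counting errors given for single mice cover counting only. Confidence intervals came from the limma fit, which uses the spread between mice.

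Groups came from the labels, and mice carry their label numbers. Group means of all 12 mice were fitted with limma 3.58.1 (R 4.3.3), with no covariates, where the methods used analysis of variance and Tukey's test. P-values were adjusted over 556 genes by Benjamini-Hochberg (threshold 0.05). The fit was run on simulated counts, with the same spread setting for all genes and changes in SPF PAT alone. Spread in the real data differed widely between genes, so that run checks the code and not these p-values. Named genes were Nos2, the 5 genes with the highest correlation with it, and the genes of the lists, except 1 gene that is not reported here. The members and lists were chosen with earlier results of these data known. Alternatives were other scalings, variance models, adjustments, a minimum mean normalized count of 20, a pseudocount of 1, voom, Tukey's test and leaving out each mouse.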

Additional observations from a re-analysis of the deposited data

How the results depend on the processing

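No Nos2 difference reversed under any alternative. SPF control minus GF control (2.85) passed the threshold in all of them except the exact permutation test (2.85, p = 0.1, the smallest that 3 against 3 mice allow), and it ranged from 2.57 to 3.05 when 1 mouse was left out. SPF PAT minus SPF control (-1.75) passed in all except the exact permutation test (-1.75, p = 0.1), and ranged from -1.97 to -1.41 when 1 mouse was left out. The difference of the tylosin effects passed with an intensity trend of the variance (-1.52, adjusted p = 0.0397 by limma), with genes of a mean normalized count of at least 20 (-1.52, 0.0373), with log2 of the normalized count plus 1 (-1.52, 0.0487), with scaling to the total count (-1.61, 0.0169) and with that total taken without the 10 most abundant genes (-1.67, 0.0224), and not in the other 6, where it ranged down to -0.98 with median centring. Leaving out 1 mouse gave -1.75 to -1.19, called without SPF PAT mouse 21 alone. SPF PAT minus GF PAT ranged from 1.11 to 1.67, SPF PAT minus GF control from 0.88 to 1.44 and GF PAT minus GF control from -0.36 to -0.11, the first called without mouse 21 alone and the others never. The cause of these changes was not tested.

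The number of genes called in SPF PAT against SPF controls was 146, and 55 by the methods' Tukey test, 41 with Benjamini-Yekutieli adjustment, 76 with the 2 groups alone, 64 to 89 without SPF control 2 or 7 or SPF PAT 26 or 27, and 232 without SPF PAT 21. In SPF against GF controls it was 234, and 142 and 128 by the first 2 of these. For the difference of the tylosin effects it was 95, and 4 with Benjamini-Yekutieli adjustment and 35 to 217 when 1 mouse was left out. In SPF PAT against GF controls it was 12, and 1 to 11 when 1 mouse was left out and 0 with median centring or the 2 groups alone. In SPF PAT against GF PAT mice it was 8, and 1 to 11 when 1 mouse was left out. Scaling to the reference genes was not run, as their rows held no value. No paired analysis was possible because the mice of different groups share no number. The 3 mice of each group and the low counts of Ifng, Il17a, Il22 and the neutrophil markers limit what can be seen.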
